A study of Mus musculus with 158 samples.

Results

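The loci described here were 9 mouse genes of the lung surfactant and airway secretion systems, out of 21755 protein-coding genes. They were chosen by name: the surfactant proteins Sftpa1, Sftpb, Sftpc and Sftpd, the secretoglobins Scgb1a1 and Scgb3a2, and Abca3, Napsa and Lamp3 of the lamellar body. A locus was the annotated gene body with 20 kb on both sides, and the readout was DNase I hotspots, which are stretches of chromatin where the enzyme cuts above the local background. The 20 adult hotspot sets held 3925513 hotspots, of which 1862 fell in these loci. In GENCODE vM21 on mm10 the gene bodies are Sftpb at chr6:72304610-72314371, Napsa at chr7:44572380-44586862, Sftpa1 at chr14:41131782-41136452, Sftpd at chr14:41172214-41185149, Sftpc at chr14:70520949-70524081, Lamp3 at chr16:19653378-19706375, Abca3 at chr17:24351950-24410201 and Scgb1a1 at chr19:9083636-9087958.

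The study mapped accessible chromatin in F1 hybrid mice, each from a cross of C57BL/6J with another inbred strain. The hybrids were B6x129, B6xC3H, B6xCAST, B6xPWK and B6xSPRET, and the tissues were whole lung, whole kidney, whole liver and B cells isolated from femoral marrow by depletion of CD43 and Mac-1/CD11b. Adult mice were 8 weeks old, untreated and carried no engineered allele, and solid tissues were typically pooled from several mice. Each hybrid and tissue had 1 hotspot set made from pooled libraries, so that every tissue had 5 sets, and a B6xCAST embryonic stem cell line (mESC) added 1 DNase-seq set and 1 set for CTCF, a DNA-binding factor found at many loop anchors. Values are given below in the order B6x129, B6xC3H, B6xCAST, B6xPWK and B6xSPRET. Spreads and p-values measure differences between the hybrids' sets, not between individual mice.

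Pulmonary surfactant is a film of lipid and protein that keeps alveoli from collapsing. Alveolar type 2 cells make it, store it in lamellar bodies and secrete it, while club cells of the airway release secretoglobins. Open chromatin at the start and at distal elements of such genes is known to follow the cell types that use them. All tissues were whole or enriched populations, so that fewer cells of a type and less accessibility per cell could not be told apart.

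Lung sets covered between 43.8 Mb (B6xC3H) and 97.0 Mb (B6xCAST) of the genome, kidney sets 63.6 to 85.2 Mb, liver sets 78.4 to 128.8 Mb and B cell sets 29.0 to 68.7 Mb. The labels list 2, 5, 10, 7 and 4 DNase-seq libraries for the 5 lung groups. Starts of all 5 liver markers were open in all 5 liver sets, and all 5 B cell marker starts in all 5 B cell sets. Starts of 4 of 5 kidney markers were open in all 5 kidney sets. In lung, all 5 alveolar type 1, all 5 endothelial and 4 of 5 ciliated marker starts were open in every set, that of Dnah5 being closed, but 4 of 5 starts of each of these lists were open in all 5 kidney sets too. B cell marker starts were open in 4 or 5 lung sets each, and that of the liver gene Alb in all 5 lung and all 5 kidney sets. In mESC, 4 of 5 stem cell marker starts were open, and the start of Esrrb was not.

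The sequence just upstream of the start is shown first, because the clearest difference between tissues lay there. The RefSeq promoter table (GRCm38.p6) held 4 of the 9 genes, namely Sftpa1, Sftpb, Abca3 and Lamp3, and lacked Sftpc, Sftpd, Scgb1a1, Scgb3a2 and Napsa. Capitals mark matches, on either strand, to GCNCTNNAG (letters of NKX2-1 sites), TGTTTAC (FOXA), TTGCNNAA (C/EBP) or TGANTCA (AP-1). These motifs were chosen after the hotspot values were seen. Sftpa1 lies at chr14:41131538-41131781 on the plus strand, Sftpb at chr6:72304360-72304609 (plus), Abca3 at chr17:24351773-24351949 (plus) and Lamp3 at chr16:19706376-19706615 (minus), all ending at the base before the annotated start.
Sftpa1 upstream: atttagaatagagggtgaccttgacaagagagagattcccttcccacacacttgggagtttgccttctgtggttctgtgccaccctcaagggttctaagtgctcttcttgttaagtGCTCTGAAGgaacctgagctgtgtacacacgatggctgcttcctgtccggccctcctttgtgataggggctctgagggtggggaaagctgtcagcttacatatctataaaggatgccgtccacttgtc
Sftpb upstream: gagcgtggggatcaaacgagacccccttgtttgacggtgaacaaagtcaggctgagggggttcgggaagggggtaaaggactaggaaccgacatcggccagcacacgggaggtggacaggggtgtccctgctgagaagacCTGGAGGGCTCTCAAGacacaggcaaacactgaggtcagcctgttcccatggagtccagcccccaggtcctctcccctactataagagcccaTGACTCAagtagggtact
Abca3 upstream: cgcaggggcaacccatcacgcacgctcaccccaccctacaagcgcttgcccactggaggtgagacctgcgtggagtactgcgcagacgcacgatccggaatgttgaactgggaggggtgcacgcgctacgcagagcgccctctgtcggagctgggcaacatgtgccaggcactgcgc
Lamp3 upstream: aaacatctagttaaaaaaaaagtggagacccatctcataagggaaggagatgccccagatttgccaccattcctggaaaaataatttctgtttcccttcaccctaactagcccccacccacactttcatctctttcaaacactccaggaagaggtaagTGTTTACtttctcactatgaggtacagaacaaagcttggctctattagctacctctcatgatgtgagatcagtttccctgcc

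Upstream of Sftpb the NKX2-1 letters occurred on both strands, 110 and 103 bases before the start, as overlapping matches, and the AP-1 letters 18 bases before it. Sftpa1 had 1 NKX2-1 match, 128 bases before the start. Lamp3 had 1 FOXA match 82 bases before the start, and Abca3 had none of the 4 motifs in its 177 bases. Among 32851 promoters of 250 bases, 14.2% held the NKX2-1 letters, 3.17% the FOXA letters, 9.56% the C/EBP letters and 6.75% the AP-1 letters. A match is a description of letters, not of a bound factor.

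The first comparison asked whether the gene starts were open in lung and elsewhere, using hotspots within 500 bp of the annotated start. All 9 starts held a hotspot in all 5 lung sets. The share of all genes with such a start was not counted, and the marker starts of Rtkn2, Foxj1 and Rsph1 were open in every adult set. Those of Sftpa1, Sftpb, Sftpc, Sftpd and Lamp3 held none in any of the 15 sets of other tissues, and the mESC set had a start hotspot only at Abca3. An exact permutation test over the 15504 ways to choose 5 of 20 sets, two-sided and adjusted by Benjamini-Hochberg over 17168 genes, called these 5 members (adjusted p = 0.0154). The same call was made for 70 of 17168 genes, or 0.408%. Genes without a start hotspot in any adult set were left out of this test. These 5 members entered it through the lung sets alone, so the p-value adds no support to the pattern. With any 1 hybrid left out the pattern at these 5 starts was unchanged, but the fewer splits gave adjusted p between 0.0911 and 0.113, and with the hybrid as block it was 0.233.

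Sftpb encodes the hydrophobic protein needed for lamellar bodies and for spreading of the film. Its start hotspot measured 1715, 745, 1638, 1423 and 1399 bp in the 5 lung sets and was wider than 94.9% to 99.1% of the hotspots of its own set. The narrowest was that of B6xC3H, the lung set with least coverage. Sftpc encodes the other hydrophobic surfactant protein, a product of type 2 cells. Its start hotspot measured 740, 462, 732, 849 and 597 bp, and in B6xCAST it reached the ceiling of the deposited −log10 FDR, 100, which among the 9 starts in lung only Abca3 also did, in 2 sets. In B6xC3H the same start scored 13.3.

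The collectins Sftpa1 and Sftpd, which bind microbial sugars, lie near each other on chr14 with Mbl1 between them. The start of Sftpa1 had widths of 720, 793, 1208, 1152 and 759 bp in lung, of which those of B6x129, B6xC3H and B6xSPRET sum 2 hotspots. The start of Sftpd had widths of 799, 615, 816, 806 and 752 bp, and its 5 values spread less than those of Sftpa1 (SD 83.4 against 234 bp). Lamp3, a lamellar body membrane protein, had start widths of 442, 411, 523, 413 and 415 bp, with the smallest SD among the 9 (47.7 bp).

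Width at the start, summed where 2 hotspots lay within 500 bp and 0 where none did, was compared in the same way. It was higher in lung for 7 of 9 members (adjusted p = 0.00592, exact permutation test), where 2.4% of 17168 genes were called higher. Each of the 7 had every lung set above all 15 others, as did 189 of 17168 genes. Sftpa1, Sftpb, Sftpc, Sftpd and Lamp3 again entered the test through lung alone, so their p-values add no support. All 7 were also called without each hybrid in turn (adjusted p up to 0.0447). Among these 7, Scgb1a1 and Scgb3a2 also had a hotspot within 500 bp of the start in some other sets. Scgb1a1, the main secretory protein of club cells, had 976, 495, 544, 408 and 369 bp in lung. The B6x129 value sums 2 hotspots, one of 575 bp over the start and another in a separate site upstream, centred at -673 bp, which 4 lung and all 5 liver sets held. The hotspots of 300 and 249 bp counted for liver B6xPWK and B6xSPRET lay in that upstream site, no other set outside lung had one in the window, and the site over the start itself was found in the 5 lung sets alone. Scgb3a2, a secretoglobin of the airway, measured 385, 235, 463, 549 and 452 bp in lung. Small hotspots of 89 and 115 bp stood there in liver B6xC3H and B6xCAST, and of 119 bp in B cell B6x129, with −log10 FDR between 1.71 and 1.96. Presence at the start alone was not called for either (adjusted p = 0.121 and 0.274).

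Abca3 and Napsa differed from the other 7. The start of Abca3, the lipid transporter of the lamellar body, was open in all 20 adult sets and in mESC, in a stretch shared with the start of Abca17. Its width in lung was 1048, 674, 2216, 1065 and 826 bp, and in the other tissues 570 to 4220 bp (adjusted p = 0.573). Napsa encodes an aspartic protease that processes proSP-B and is also made in kidney. Its start measured 588, 453, 634, 639 and 586 bp in lung, 931 to 989 bp in kidney and 809 to 1843 bp in B cells. In liver it was open only in B6x129 (355 bp) and B6xPWK (217 bp). The Napsa difference did not pass the test (adjusted p = 0.685).

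**Figure D1:**
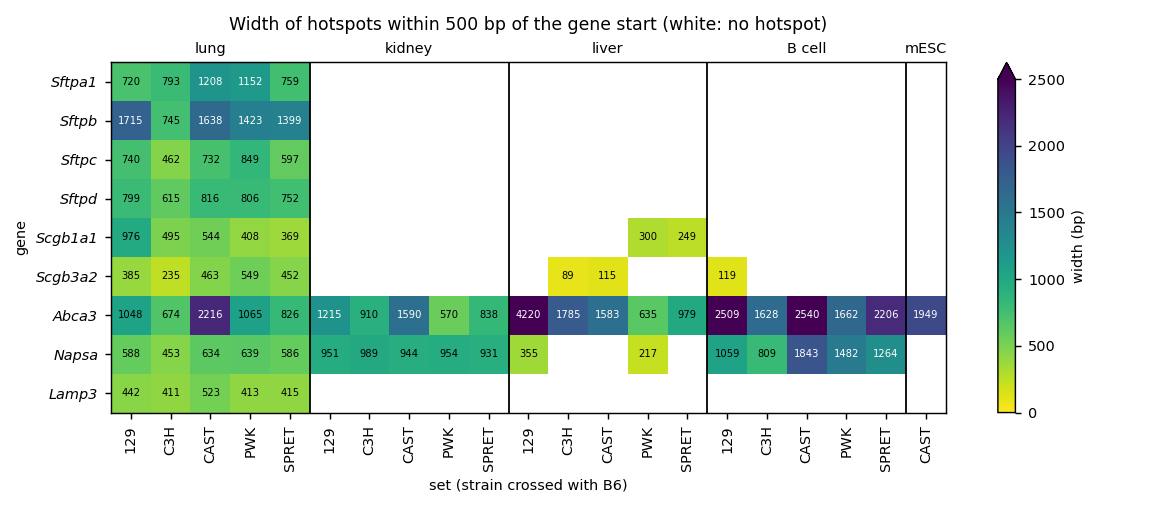
Width in bp of the hotspots within 500 bp of each gene start, for 9 genes (rows) and 21 sets (columns, grouped by tissue and labelled by the strain crossed with B6), with white cells where no hotspot lay. The rows of Sftpa1, Sftpb, Sftpc, Sftpd and Lamp3 are filled in the 5 lung columns and empty elsewhere, while Abca3 is filled in all 21.

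The second comparison used the whole locus and asked how many base pairs of gene and flanks were covered. By this measure 2 of 9 members were called higher in lung, against 1.29% of 21495 genes tested, and 0 were called lower. The median difference over the members, lung minus others, was 1825 bp, and over all genes it was -318 bp. Only Lamp3 had every lung set above all others, which held for 0.428% of genes. With the hybrid as block 0 members and 0% of genes were called. Without B6x129, B6xCAST, B6xPWK or B6xSPRET 0 members and 0% of genes were called, and without B6xC3H 2 members and 1.08% of genes.

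Lamp3 was covered over 3514, 2314, 3061, 2595 and 2055 bp in lung. All 15 other sets had 423 to 1470 bp. The means were 2708 ± 585 bp (SD, n = 5) and 883 ± 348 bp (SD, n = 15), a ratio of 3.07 (adjusted p = 0.0151, exact permutation test). For Scgb1a1 the lung sets held 9751, 5779, 9657, 6976 and 6256 bp, kidney 2293 to 3859 bp, liver 4649 to 6561 bp and B cells 3514 to 5746 bp. The lung mean of 7684 ± 1893 bp stood 1.70 times above that of the others (adjusted p = 0.049), with the lowest lung sets inside the liver range.

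At 3 other loci the lung values were less even. Sftpb had 12940, 3338, 12865, 10671 and 5227 bp in lung. Its highest value elsewhere was 5931 bp, in liver, so that B6xC3H and B6xSPRET lung overlapped the other tissues. The lung mean was 9008 ± 4459 bp and the mean of the others 2586 ± 1751 bp, a ratio of 3.48 that did not pass the adjusted threshold (adjusted p = 0.0629). Sftpc had 14872, 3412, 20371, 11823 and 4167 bp in lung, the widest range among the members. Liver covered 7990 to 11642 bp of the Sftpc locus and kidney 3910 to 4540 bp (adjusted p = 0.225). Scgb3a2 had 1600, 976, 2139, 1784 and 1367 bp in lung and 884 to 1376 bp in kidney, while no liver or B cell set exceeded 201 bp (adjusted p = 0.0506).

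Neighbouring genes lay within several windows. In the Sftpa1 locus lung covered 2559, 2932, 5309, 6292 and 2833 bp, and liver 17491 to 21427 bp. The window reaches into Mat1a, the methionine adenosyltransferase of liver, whose start lay in a merged stretch of 30394 bp held by all lung, kidney and liver sets, and into Mbl1. Sftpd had 6293, 3803, 5774, 6284 and 4216 bp in lung, 4670 to 9729 bp in liver and at most 481 bp in B cells. The Sftpa1 and Sftpd windows share 4239 bp. Abca3 was covered over 8353 ± 2536 bp in lung and 17246 ± 3852 bp in liver, and Napsa over 7359 ± 3249 bp in lung, beside 9169 ± 3981 bp in the B cell sets (all SD, n = 5).

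Inside the gene bodies alone, which exclude most neighbours, the picture was different. Sftpa1 had 489 to 2709 bp covered in lung and 0 bp in each of the 15 other sets. Sftpb had 544 to 5762 bp in lung and at most 125 bp elsewhere. For Sftpd, liver held 330 to 1679 bp inside the gene, beside 496 to 1016 bp in lung, although no liver set was open at its start. With gene bodies alone 6 of 9 members were called higher in lung, where 2.99% of 19785 genes were. Sftpa1 and Scgb1a1 had 0 bp covered there outside lung. They entered this test through lung alone, so their p-values add no support. The difference for Sftpa1 changed sign from -2923 bp with flanks to 1479 bp without them (adjusted p = 0.00717).

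**Figure D2:**
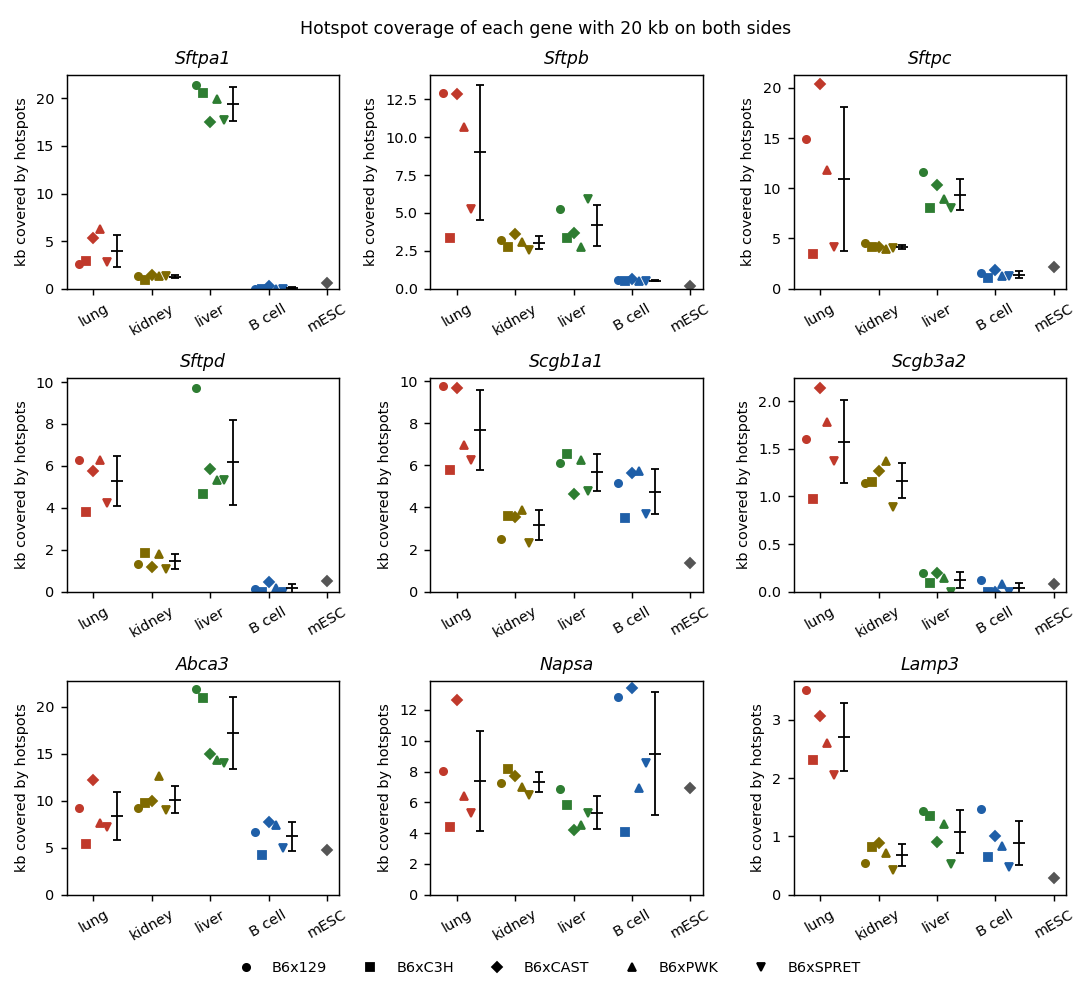
Kilobases covered by hotspots in each gene with 20 kb on both sides, with 1 point per set (marker shape gives the hybrid) and the mean ± SD of 5 sets beside each adult tissue. Lamp3 is the only gene whose 5 lung points all lie above the other adult points, and Sftpa1 and Abca3 are highest in liver.

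Against single tissues, 5 sets against 5 allow no two-sided p below 0.00794. Against liver 2 members, Scgb3a2 and Lamp3, were called higher in lung and Sftpa1 and Abca3 lower (adjusted p = 0.0291 for each, exact permutation test), where 3.32% of 21462 genes were called higher and 29.9% lower in lung. With 1 hybrid left out, 4 sets against 4 allow no p below 0.0286. All 4 calls were then lost and 0% of genes were called higher, so the loss does not measure their stability. Against kidney 0 members and 0% of 21441 genes were called, and against B cells 0 members and 0% of 21420 genes. Divided by the set total, 7 members were called against kidney and 6 against B cells, where 16.7% and 18.1% of genes were, and with gene bodies alone 7 and 6, where 4.45% and 16.4% were. Members with no covered base in the gene body of the other tissue entered the latter tests through lung alone. At an unadjusted p under 0.05, 5 members were higher in lung than in kidney and 7 higher than in B cells, beside 6.59% and 23.8% of all genes. Those 7, which do not include Abca3 and Napsa, had every lung set above every B cell set, as did 14.4% of genes.

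The number of hotspots per locus was called higher in lung for Sftpb, Scgb1a1 and Lamp3 (adjusted p = 0.0402, 0.0314 and 0.0233, exact permutation test), where 2.77% of 21495 genes were called higher. Without any 1 hybrid none of the 3 was called. Of all genes 1.18% were called higher without B6xC3H and 0% without each of the others. The loss alone thus does not measure their stability. With the 75000 highest-scoring hotspots of each set the difference for Scgb1a1 became -0.40. Sftpb had 31, 10, 21, 22 and 12 hotspots in lung and 6.93 ± 4.38 (SD, n = 15) elsewhere. Scgb1a1 had 18, 12, 19, 13 and 16 in lung and 10.1 ± 1.71 elsewhere. Lamp3 had 11, 9, 9, 8 and 6 in lung and 4.07 ± 1.53 elsewhere.

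Lung values varied with the hybrid. Summed over the 9 loci, lung covered 68819, 32361, 83987, 60521 and 38676 bp. B6xC3H had the lowest lung value at 7 of 9 loci, and B6x129 and B6xCAST the highest at 4 each. The order followed the size of the set, since the B6xC3H and B6xSPRET lung sets covered 43.8 and 57.3 Mb in all. Divided by the set total, the sums were 817, 739, 866, 1008 and 675 bp per Mb covered, and B6xPWK had the highest value at 5 of 9 loci. Liver sets overlapped these sums, at 656 to 784 bp per Mb. The part of set size in the hybrid differences was not tested further. In lung all 9 starts were open in each of the 5 hybrids whatever the size of the set, which was not compared with all genes.

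**Figure D3:**
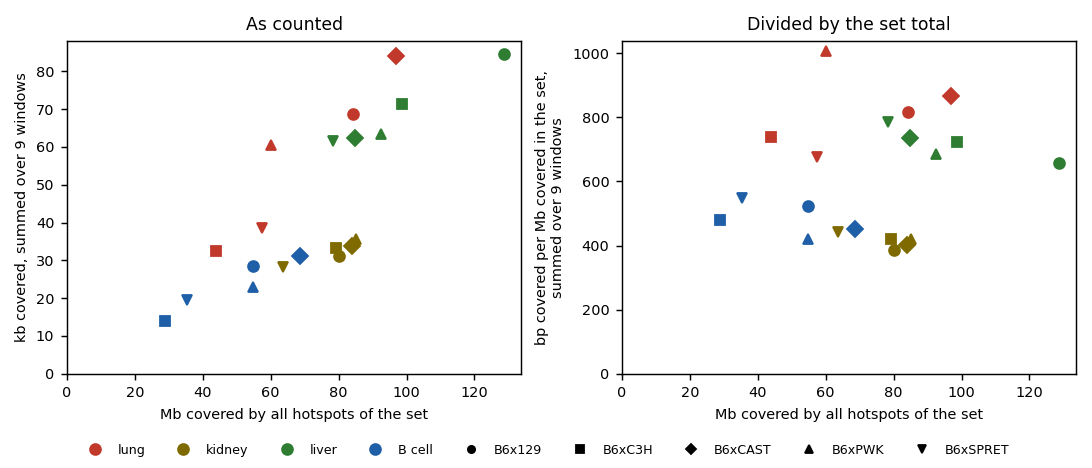
Coverage summed over the 9 loci in each of the 20 adult sets against the Mb covered by all hotspots of that set, as counted (left, kb) and divided by the set total (right, bp per Mb), with colour for tissue and marker for hybrid. On the left the 5 lung sets run from 32361 bp to 83987 bp, lowest in B6xC3H, and on the right from 675 to 1008 bp per Mb, all above the kidney and B cell sets. Liver sets overlap the lung sets in both panels, at 61527 to 84547 bp and 656 to 784 bp per Mb.

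Hotspots of the 20 adult sets were then merged into sites wherever they overlapped. The 9 loci held 258 of the 745754 merged sites. In these loci 14 sites had a hotspot in all 5 lung sets and in no other set, or 5.43%, where 1.47% of all merged sites did. Another 72 sites were in lung alone but in fewer than 5 hybrids, 16 were in all 20 sets and 79 were in no lung set. None of the 14 overlapped an mESC DNase or CTCF hotspot, while 13 and 12 of the 16 sites in all 20 sets did. Of all 258 sites in these loci 24 and 22 did. The share among all merged sites was not counted, so these counts are a description. Only B6xCAST was profiled in mESC.

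Of the 14 sites, 5 contained a start, those of Sftpa1, Sftpc, Sftpd, Scgb1a1 and Lamp3. The start of Sftpb lay in a merged site of 1770 bp in which 1 kidney and 2 liver sets also had a hotspot, beyond 500 bp upstream of the start. Sftpa1 held 4 of the 14 sites, more than any other member, among them sites centred 389, 4022 and 5496 bp from its start. Sftpb had 1, at 4694 bp, which overlapped an exon and spanned 2072 bp after merging. Sftpc had a second site centred at -10501 bp, upstream of its start and over an exon of Lgi3, and Sftpd one in an intron, 1467 bp downstream of the start. Lamp3 had one 6970 bp into the gene, with lung hotspots of 477 to 600 bp. Napsa, open at its start in several tissues, had 1 lung site over an exon 10842 bp from the start, with hotspots of 455 to 767 bp. Abca3 had 0. Scgb3a2 had a small site of 238 bp, centred upstream at -19006 bp.

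**Figure D4:**
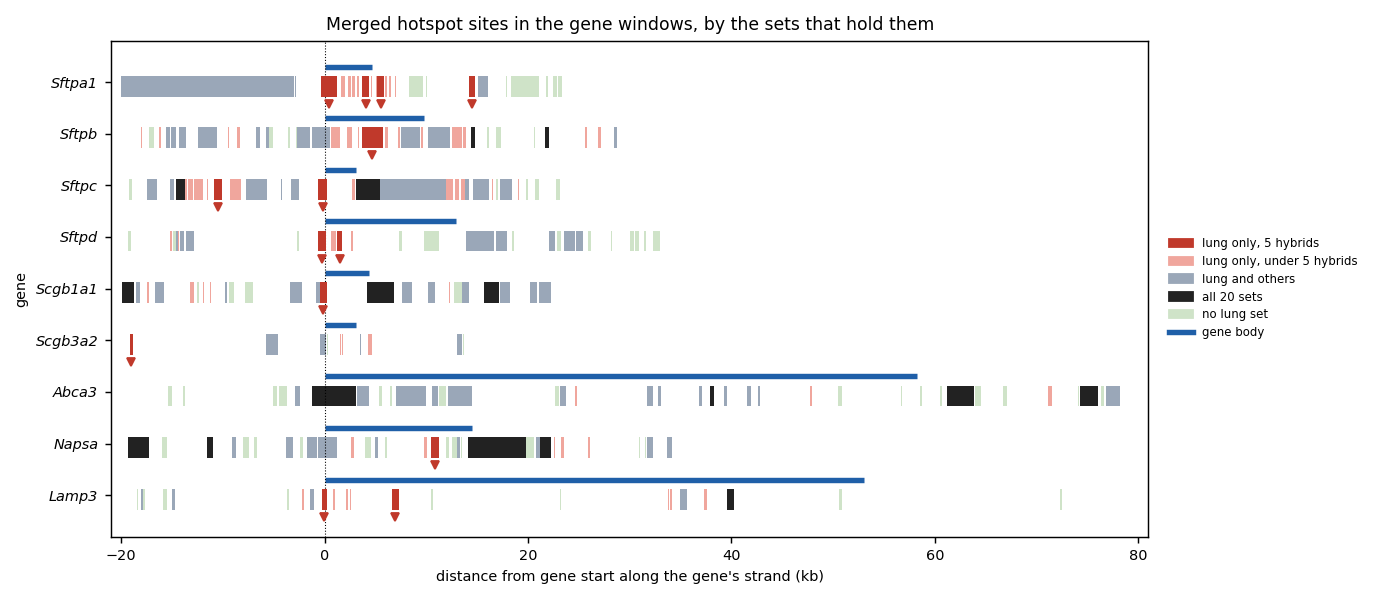
Merged hotspot sites in each gene window by distance from the gene start along its strand (kb), coloured by the sets that hold them, with triangles at the 14 sites found in all 5 lung sets and no other set and blue bars for gene bodies. Of the 14 triangles 5 lie at gene starts and the others within genes or away from them, 4 are in the Sftpa1 row, and the Abca3 row has none.

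The sequences at the centres of 2 of these sites outside exons are shown because they lie away from any start. They cover 250 bases of GRCm38.p6 each, on the strand of the gene, at chr14:41137153-41137402 (plus, intergenic, downstream of Sftpa1) and at chr14:41183557-41183806 (minus, an intron of Sftpd). Capitals again mark the 4 motifs.
Sftpa1 site 5496 bp downstream of its start: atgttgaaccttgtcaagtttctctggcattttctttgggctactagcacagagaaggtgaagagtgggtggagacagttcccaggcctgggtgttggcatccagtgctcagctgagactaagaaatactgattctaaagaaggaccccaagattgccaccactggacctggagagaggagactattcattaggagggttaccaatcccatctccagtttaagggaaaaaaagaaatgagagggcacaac
Sftpd site 1467 bp downstream of its start: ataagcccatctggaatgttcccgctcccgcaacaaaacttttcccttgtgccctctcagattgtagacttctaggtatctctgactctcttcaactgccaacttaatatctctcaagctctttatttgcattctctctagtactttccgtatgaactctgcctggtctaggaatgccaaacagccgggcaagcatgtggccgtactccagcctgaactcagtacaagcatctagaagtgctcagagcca

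Neither stretch held any of the 4 motifs. Lung hotspots at the Sftpa1 site measured 292 to 651 bp, and at the Sftpd site 283 to 446 bp.

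Partial lung sites were uneven among hybrids. Of the 72 sites found in lung alone but in fewer than 5 hybrids, B6xCAST held 42, B6x129 29, B6xPWK 26, B6xC3H 7 and B6xSPRET 6. B6xC3H alone was missing at 3, which lay 1084 and 13028 bp from the Sftpb start and 2764 bp from the Napsa start. B6xC3H lung was also the smallest lung set. The share of partial lung sites among all merged sites, and their split over the hybrids, was not counted.

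RNA-seq was available for 17 libraries, 4 of them lung, in the form of RSEM's expected counts. The tables held 283708 to 809317 counts per library, and Actb, which every cell uses, was listed at 1 to 99 counts. The libraries were stranded, but the strand setting of the counting is not given in the sources used here, so the values are given as listed and not as transcript levels. Sftpc had 56 counts in B6xC3H lung, 17 in B6xPWK and 43 and 21 in the B6xSPRET libraries, and 0 in all 13 others. Scgb1a1 had 63, 21, 28 and 25 and likewise 0 elsewhere. Relative to the library totals this was at least 169-fold higher in lung for each, with 3 counts over the other 13 libraries as floor. Both passed edgeR's filter on low counts through the lung libraries alone, so no test is given for them.

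Abca3 also passed the filter and was not called by edgeR's quasi-likelihood test (log2 difference 0.28 ± 0.32 SE, adjusted p = 0.493), where 29.6% of 4479 genes were called higher, with 17 to 32 counts in lung, 51 to 115 in B cells, 8 to 12 in kidney and 0 to 4 in liver. The 6 other members failed the filter on low counts. Sftpa1 had 17, 7, 9 and 8 counts in lung and 0 elsewhere, and Sftpb 10, 3, 7 and 5 in lung and 3 in all the others together. Sftpd had 21 in lung and 9 in liver in all. Napsa had 5 over the lung libraries, 12 to 22 in each kidney library and 5 in the B6xC3H B cell library. Scgb3a2 and Lamp3 had 4 and 7 counts over the lung libraries and 0 elsewhere. Napsa overlaps Gm15396 on the opposite strand, and Abca3 overlaps D330041H03Rik and Gm25618 on the opposite strand, so reads of both genes may be shared.

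**Figure D5:**
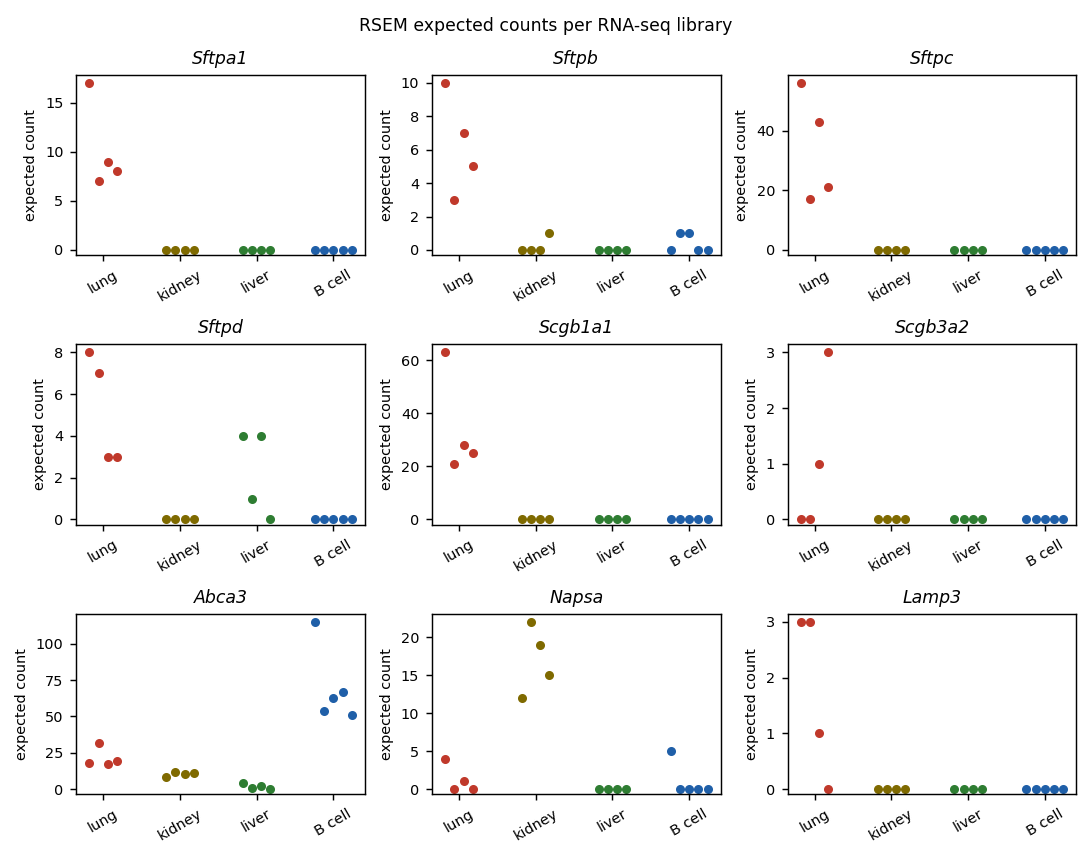
Expected counts per RNA-seq library for the 9 genes, with 1 point per library and 4 lung, 4 kidney, 4 liver and 5 B cell libraries. Sftpa1, Sftpc, Scgb1a1, Scgb3a2 and Lamp3 are at 0 outside lung, Napsa is highest in kidney and Abca3 in B cells.

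Other genes of these systems were set beside the members from 4 lists. Of 12 genes of surfactant lipid and protein metabolism, 0 were called by coverage, number, start or start width in the permutation tests. By hotspot number 2 of them were higher at an unadjusted p under 0.05, where 12.8% of all genes were, and 0 by the other measures. Of 8 other type 2 cell genes, 3 were called higher by coverage. Cxcl15, a chemokine of lung epithelium, had 4170 ± 2095 bp in lung and 998 ± 702 bp elsewhere (adjusted p = 0.0217, exact permutation test), and its start was open in lung alone. The lysozyme genes Lyz1 and Lyz2 were called too (4277 and 4057 bp in lung), but their windows share 34525 bp. Lysozyme is also made by macrophages.

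Of 10 other club and airway genes, 0 were called by coverage. At an unadjusted p under 0.05, 2 were higher by coverage, where 7.23% of all genes were. By start width 4 were called, where 2.4% of all genes were called higher. Those 4 were Scgb3a1, Cbr2, Lypd2 and Muc5b, at 255, 1531, 450 and 357 bp in lung. The start of Lypd2 was open in lung alone, so its call adds no support. Of 6 factors known at surfactant promoters, Nkx2-1 alone was called, by all 4 measures. Its start was open in lung alone, so its calls by start and start width add no support. The Nkx2-1 locus was covered over 7070 ± 4673 bp in lung and 626 ± 461 bp elsewhere (adjusted p = 0.0151, exact permutation test).

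The genes whose coverage over the 20 sets was most like the mean member profile were Ccn5, Ippk, Togaram2, Spata17 and Zfp687, out of 17612 compared. Pearson's r was 0.97, 0.97, 0.96, 0.96 and 0.95 over 20 sets, which share set size. Of these 5 only Togaram2 had a start open in all 5 lung sets and in no other, while Ippk, Spata17 and Zfp687 were open at the start in all 15 others.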

How the data were processed

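The deposited hotspot sets were made by the authors, who trimmed reads (Trimmomatic), aligned them to mm10 (BWA), pooled the libraries of each hybrid and tissue, and ran hotspot2 (FDR of 5%). Each hotspot carries the authors' −log10 FDR. Read depth was not used here, and the hotspots and Mb of each set do not stand for it. The study lists more analyzed reads for B6xPWK lung than for B6x129 lung, whose sets covered 60.1 and 84.3 Mb. RNA-seq tables hold the authors' expected counts and TPM from STAR and RSEM. The tables' Ensembl IDs matched GENCODE vM21 for 52013 of 53715 genes.

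Hotspots overlapping a gene with 20 kb on both sides, or 500 bp around its start, were counted with numpy 2.4.6 for all protein-coding genes, and tested by exact permutation of sets with Benjamini-Hochberg adjustment over all genes tested (threshold 0.05). Rounded expected counts went into edgeR 4.0.16 (TMM, filterByExpr, lung minus the mean of the other 3 tissues). DESeq2 1.42.0 and limma 3.58.1 on log2(TPM + 1) were alternatives. The tests were tried on simulated data. All 9 members are named. From the lists, the called genes with the largest differences in coverage are named, and genes called by another measure were named after their values were seen. Members and lists were chosen with earlier results of these data known. The labels and the study's sample table give different hybrids for 1 B cell RNA library, whose hybrid, as labelled, entered the blocked fit alone. Sequences of the other sites are not reported here.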

Additional observations from a re-analysis of the deposited data

Results flagged for a closer look

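Among 89 groups of 5 sets of 1 tissue with any spread, 11 had a set far from the other 4 by Dixon's test, which chance gives in about 1 of 20 groups. Several were sets with large coverage. At Sftpa1 in B cells, B6xCAST had 262 bp covered in 2 hotspots and the other 4 sets had none. At Sftpa1 in liver, B6xCAST had 27 hotspots, against 12 to 15. At Sftpd in liver, B6x129 had 9729 bp covered, against 4670 to 5835 bp, and that set covered 128.8 Mb in all, the most of any. At Abca3 in kidney, B6xPWK had 12651 bp covered in 28 hotspots, against 9045 to 9949 bp and 19 to 20 hotspots.

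At the gene starts, Scgb1a1 had 976 bp in B6x129 lung, against 369 to 544 bp, as the sum of a hotspot of 575 bp over the start and a separate one upstream that reached into the window. Abca3 was 2216 bp wide in B6xCAST lung, against 674 to 1065 bp. Lamp3 was 523 bp wide in B6xCAST lung, against 411 to 442 bp. Napsa was 453 bp wide in B6xC3H lung, against 586 to 639 bp. Scgb3a2 had a start hotspot of 119 bp in B6x129 B cells and none in the other B cell sets. The causes were not tested.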

How the results depend on the processing

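By start width 7 members were called under every alternative but 1, where 1.17% to 2.59% of all genes were called higher. The exception was the 75000 highest-scoring hotspots of each set, which gave 5, where 1.93% of genes were. Members without a start hotspot outside lung entered these tests through lung alone, so their calls add no support. The 14 lung sites ranged from 10 of 85 sites (gene bodies alone) to 18 of 255 (without B6xC3H), or 11.8% and 7.06%. Of all merged sites 1.47% and 2.29% were in lung alone under these settings. Without B6xC3H a site needed 1 lung set fewer. Starts open in lung alone numbered 4 to 6 under the other cutoffs and start windows. Leaving out a hybrid leaves 1820 splits and no p below 0.000549, or none below 0.0286 against a single tissue. Treating the hybrid as a block leaves 1024 splits and none below 0.000977. Members called fell to 0 for starts and hotspot number without any of the 5 hybrids, to 0 to 2 for coverage (2 without B6xC3H, 0 without each of the others), and to 0 for coverage against liver. No gene was called higher in these fits either, except without B6xC3H by coverage (1.08%) and number (1.18%). With the hybrid as block the counts were 0 for coverage (0% of genes), 1 for number (2.13%) and 0 for starts (0%).

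Beside each count stands the share of all genes called higher. Coverage called 1 member at FDR 1% (1.25%), 4 with the 75000 hotspots (3.31%), 6 with gene bodies alone (2.99%) and 6 divided by the set total (7.61%). Hotspot number called 5 with gene bodies alone (3.38%). Against kidney the calls were 6 with the 75000 hotspots (5.53%), 7 with gene bodies (4.45%) and 7 by set total (16.7%). Against liver they were 6 with gene bodies (5.27%) and 5 by set total (26.3%). Against B cells they were 6 with the 75000 hotspots (11.8%), 6 with gene bodies (16.4%), 7 with 10 kb flanks (14.8%) and 6 by set total (18.1%). In these coverage and number counts, members without a covered base in the other tissues compared entered through lung alone. Their calls add no support. Against kidney with gene bodies these were Sftpa1, Sftpb, Sftpc, Sftpd, Scgb1a1 and Scgb3a2. For RNA-seq, edgeR called 2 members (29.6%), DESeq2 5 (19.2%), edgeR on all genes with 1 count or more 7 (13.5%) and limma 7 (17.2%). Without 1 lung library edgeR called 2 each time (25.2% to 27.4%). With the hybrid as replicate block, an alternative chosen after seeing the data, it called 2 (30.7%). In the filtered fits both passed the filter through lung alone, so these counts support nothing. Nor do those of DESeq2, limma and edgeR on all genes with 1 count or more. There Sftpa1, Sftpc, Scgb1a1, Scgb3a2 and Lamp3 entered through lung alone, with 0 counts in the 13 other libraries. Scgb3a2 had 4 counts in all and Lamp3 7. The cause of these shifts was not tested.

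Of 672 member values, 488 kept direction and call, 89 lost the call, 74 gained it and 21 changed direction. Napsa coverage became -425 bp with the 75000 hotspots and -7.31 bp per Mb by set total, and ran from -942 to 503 bp without each hybrid. Against kidney it ran from -1189 to 976 bp. Sftpa1 coverage became 1479 bp with gene bodies, also against liver, and 468 bp with 10 kb flanks. Hotspot number of Scgb1a1 became -0.40 with the 75000 hotspots. That of Abca3 became -1.87 with the 75000 hotspots, -0.40 with 10 kb flanks, -0.26 when divided by set total and ran from -1.67 to 1.75 without each hybrid, and that of Napsa became -0.86 by set total. Against liver, Sftpd became 1020 bp (75000 hotspots), 27.0 bp (gene bodies), 1099 bp (10 kb flanks) and 16.5 bp per Mb (set total), Scgb1a1 became -41.0 bp (10 kb flanks), and Sftpc ran from -574 to 3090 bp without each hybrid. Against B cells Abca3 became -8.77 bp per Mb.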

Other observations

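Of the 70 genes whose start was open in all 5 lung sets and in no other adult set, Nkx2-1, the factor that specifies lung epithelium, had a mean start width in lung of 1726 ± 1572 bp (SD, n = 5), from 101 to 3827 bp. Without its widest set the mean was 1201 bp. Sftpb had 1384 ± 382 bp, or 1301 bp without its widest set. By mean width Sftpb ranked second after Nkx2-1, with the order of the pair set by 1 Nkx2-1 set, and Sftpa1 the third at 926 bp. Sftpd was the fifth at 758 bp, after Hcfc2 at 827 bp, and Sftpc the seventh at 676 bp, after Cxcl15 at 722 bp. Lamp3 stood at rank 28, at 441 bp. These genes were chosen after their values were seen, so the order is a description with no test.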
